A study of Mus musculus with 2 samples.

Results

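The genes described here encode the nuclear part of the mitochondrial respiratory chain, complexes I to V. They were chosen by symbol, as protein-coding genes whose names begin with Nduf followed by a, b, c, s or v, with Uqcr, with Cox and a digit from 4 to 8, or with Atp5, together with Cyc1 and Sdha to Sdhd. The rule took 97 of the 21657 protein-coding genes listed. Of these, 88 encode subunits (38 of complex I, 4 of complex II, 9 of complex III, 20 of complex IV and 17 of complex V), 8 are the complex I assembly factors Ndufaf1 to Ndufaf8, and the last is Cox5b-ps, a copy named as a pseudogene. The samples were Meta4 organoids, a dysplastic culture from the mouse stomach corpus, given the solvent DMSO or the anthelmintic drug pyrvinium for 1 day. Both cultures carried Mist1-CreERT2Tg/+ together with LSL-K-ras(G12D)Tg/+ and were labelled as having had dysplasia induced. In this genotype a Cre recombinase that needs an inducing drug is driven by Mist1, a gene of chief cells, and removes a block in front of mutant K-ras. Whether the culture was 1 clone or came from pooled animals is not given in the sources used here.

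In the respiratory chain, complex I takes electrons from NADH and complex II from succinate. Ubiquinone carries them to complex III, cytochrome c carries them on to complex IV, and oxygen receives them there. The protons pumped by complexes I, III and IV drive ATP synthase, complex V. Most subunits are encoded in the nucleus and imported, while a small set of core subunits of complexes I, III, IV and V is encoded by mitochondrial DNA, so both genomes supply parts of 1 machine.

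Each treatment gave 1 library of single cells, so no difference below has a replicate check, no test was possible, and intervals are 95% intervals for counting error only. Kept cells were barcodes with at least 9320 counts (DMSO, 1602 cells) or 13100 counts (pyrvinium, 854 cells), and the libraries shared 0 kept barcodes. Median depth differed, with 18592.5 counts per DMSO cell and 31517 per pyrvinium cell, and the sums over cells were 39980497 and 37046673 counts. All 8 epithelial markers were counted in both libraries, with a summed level of 8816 CPM (counts scaled to a total of 1000000 per library) for DMSO and 5965 CPM for pyrvinium. Of the 7 immune markers, Lyz2 was at 0 in both libraries and Ptprc had 14 and 28 counts. Fibroblast markers summed to 1.13 and 1.11 CPM. Muscle markers summed to 4.88 and 6.15 CPM, and parietal and chief cell markers to 11.4 and 6.26 CPM. Among markers of other cells, the endothelial gene Cdh5 (41.7 and 56.6 CPM) and the immune gene Cd68 (21.0 and 28.3 CPM) stood above these levels, while the endothelial gene Pecam1 had 51 and 77 counts.

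Nuclear-encoded subunits took nearly the same share of RNA in both libraries. They made up 6.29% of the DMSO counts and 6.56% of the pyrvinium counts, a ratio of 1.04. Of the 88 subunits, 83 had at least 20 counts over both libraries, and their median log2 ratio of pyrvinium over DMSO was 0.07, with 53 above 0 and 30 below. The same median was -0.08 over all 15586 genes with as many counts, and -0.01 over the 1364 abundant genes, those reaching 100 CPM in either library. The subunits also lay close together: the distance between the quartiles of their log2 ratios was 0.25, against 0.68 over all genes and 0.57 over the abundant ones.

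A gene was counted as higher or lower when its ratio passed 1.5-fold and its whole interval lay on that side of 1. By this rule 2 subunits were higher with pyrvinium, Uqcrq and Cox6a2, and 1 was lower, Ndufa4l2. That is 3.61% of the 83 subunits, against 23.1% of all genes. In one direction at a time, 7.57% of all genes were higher and 15.5% were lower. With the limit at 1.2-fold, 9 subunits were higher and 5 lower, 16.9% in all, against 44.5% of all genes. Among abundant genes only, 7 of 77 subunits were higher at 1.2-fold, where 24.3% of such genes were, and 4 were lower, where 29.2% were. Together these were 14.3% of the subunits against 53.5% of the abundant genes. The balance of these smaller differences depends on the scaling. The libraries were also scaled by the median of ratios, or without mitochondrial and ribosomal protein genes. In both scalings 21 subunits were higher and 4 lower at 1.2-fold, and the subunit median was 0.15. Of all 15586 genes, 3343 were higher and 3550 lower by the median of ratios, and 3293 and 3617 by the other scaling. The median over all genes went to about 0.00, where the median of ratios places it by design.

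**Figure D1:**
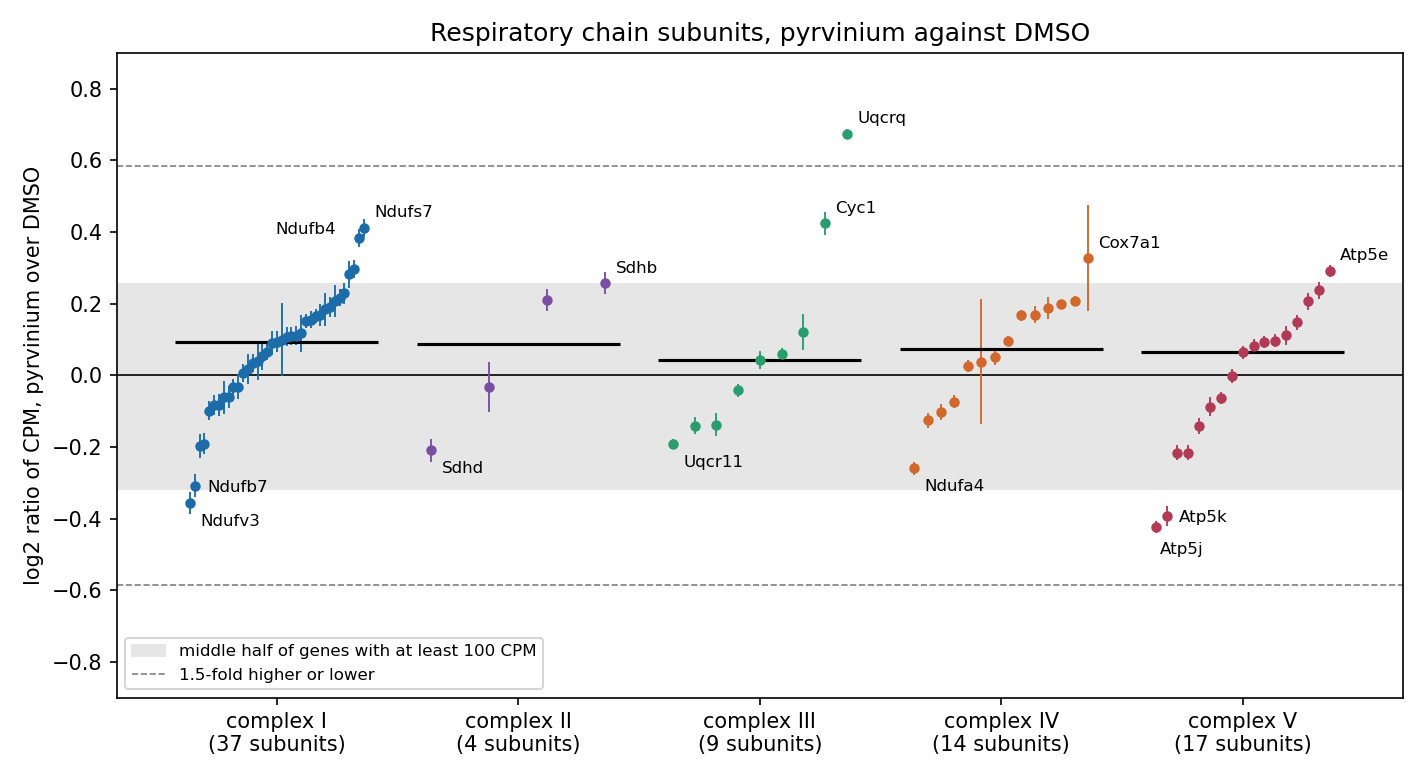
Log2 ratio of pyrvinium over DMSO for each subunit with at least 20 counts in all and 10 CPM in a library, 1 point per gene with its 95% counting interval, grouped by complex; black bars are medians of the plotted genes and the grey band holds the middle part, quartile to quartile, of the abundant genes. Most subunits lie within the band, and Uqcrq (0.67) is the only plotted one past the 1.5-fold line.

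By complex, the median log2 ratio was 0.09 for complex I, 0.09 for complex II, 0.04 for complex III, 0.07 for complex IV and 0.06 for complex V. The summed level of complex I was 17522 CPM (DMSO) and 18543 CPM (pyrvinium). Complex II was at 1345 and 1432 CPM, complex III at 9173 and 9971 CPM, and complex IV at 17681 and 18573 CPM. Complex V was at 17132 and 17046 CPM, so its sum was level (log2 ratio -0.01) although its median was above 0. No complex stood off from the others by as much as its own members differed among themselves.

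The upstream sequences of 4 subunits are shown, for complexes I and V the lowest and the highest member whose 250 bases overlap no annotated RefSeq gene. They are therefore not the ends of the whole complexes: Ndufv3 lay below Ndufb7, Ndufs7 above Ndufb4, and Atp5j and Atp5k below Atp5o, while Atp5e was the highest of complex V. Each is the 250 bases before the RefSeq start of the gene (build GRCm38.p6), 5′ to 3′ on the gene's strand, and capitals mark a match to the NRF1 motif (GCGC, any 2 bases, GCGC) or the ETS motif CCGGAAG on either strand. NRF1 and the ETS factor GABP are known as regulators of many respiratory genes. Ndufb7 lies at chr8:83566508-83566757 (plus strand), Ndufb4 at chr16:37654369-37654618 (minus strand), Atp5o at chr16:91931631-91931880 (minus strand) and Atp5e at chr2:174464102-174464351 (minus strand).
Ndufb7: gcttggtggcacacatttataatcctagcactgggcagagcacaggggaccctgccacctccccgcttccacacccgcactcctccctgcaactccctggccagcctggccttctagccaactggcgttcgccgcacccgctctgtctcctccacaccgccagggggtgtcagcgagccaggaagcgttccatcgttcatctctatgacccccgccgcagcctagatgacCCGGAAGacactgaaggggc
Ndufb4: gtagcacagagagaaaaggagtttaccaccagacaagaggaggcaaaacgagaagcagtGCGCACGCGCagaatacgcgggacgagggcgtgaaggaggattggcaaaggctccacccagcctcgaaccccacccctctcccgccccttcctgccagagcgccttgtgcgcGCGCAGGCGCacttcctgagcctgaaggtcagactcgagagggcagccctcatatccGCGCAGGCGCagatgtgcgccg
Atp5o: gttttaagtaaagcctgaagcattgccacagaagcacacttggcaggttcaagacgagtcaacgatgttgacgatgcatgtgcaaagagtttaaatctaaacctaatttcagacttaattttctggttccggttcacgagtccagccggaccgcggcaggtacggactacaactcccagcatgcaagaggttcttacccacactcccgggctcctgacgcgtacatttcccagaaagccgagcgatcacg
Atp5e: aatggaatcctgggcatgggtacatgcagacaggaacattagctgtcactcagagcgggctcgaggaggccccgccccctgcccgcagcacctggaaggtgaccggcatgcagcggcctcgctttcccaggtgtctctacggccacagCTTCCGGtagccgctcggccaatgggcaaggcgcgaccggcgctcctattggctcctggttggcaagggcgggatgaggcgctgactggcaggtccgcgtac
The Ndufb4 sequence holds 3 NRF1 matches, Ndufb7 and Atp5e hold 1 ETS match each, and Atp5o holds none of either. Of the 83 subunits, 68 had an entry, and Uqcrq and Cyc1 were among those without one. An NRF1 match stood in 14 of them (20.6%), against 7.17% of the 16744 protein-coding entries, and an ETS match in 11 (16.2%), against 9.35%. The motif AAGATGGC of the factor YY1 stood in 0 of the 68 and in 1.48% of all entries. Only the 250 bases before the start were searched, so matches at or after the start were not seen. GC content was alike, with a median of 56.4% for the subunits and 55.6% for all. The 14 subunits with an NRF1 match had a median log2 ratio of 0.053, and the 54 without one had 0.055. For the ETS motif the medians were 0.007 over the 11 with a match and 0.066 over the 57 without. These values cover the 68 subunits with an entry only.

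Complex I, the NADH dehydrogenase, is built from the N module that oxidises NADH, the Q module that reduces ubiquinone, and a membrane arm. Of its 38 genes, Ndufb11b had 0 counts in both libraries, which allows up to 3 counts in each. At 1.5-fold 0 of the other 37 were higher or lower, against 23.1% of all genes. At 1.2-fold 4 were higher and 2 lower, 16.2% against 44.5% of all genes. The median log2 ratio was 0.13 over the 10 genes of the N module, 0.09 over the 6 of the Q module and 0.04 over the 21 measured genes of the membrane arm.

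Ndufs7 (ENSMUSG00000020153), which holds the last iron-sulphur cluster before ubiquinone, was at 561 CPM with DMSO (interval 554 to 569) and 747 CPM with pyrvinium (738 to 756), a log2 ratio of 0.41. Ndufb4 (ENSMUSG00000022820), an accessory subunit of the membrane arm whose upstream sequence is given above, was at 564 and 736 CPM (0.38). These were the highest values of the complex. Ndufa2, an accessory subunit of the N module, was at 559 and 686 CPM, and Ndufs4, an accessory subunit whose loss causes a well-known mouse model of complex I deficiency, at 265 and 323 CPM.

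At the other end, Ndufv3 (ENSMUSG00000024038), a small subunit of the N module, was at 491 CPM with DMSO (484 to 498) and 384 CPM with pyrvinium (377 to 390), a log2 ratio of -0.36. Ndufb7, a membrane arm subunit, was at 445 and 359 CPM (-0.31). The other catalytic and redox subunits described lay between these ends. Ndufv1, which binds NADH and flavin, was at 182.5 and 207 CPM. Ndufs1 was at 39.3 and 42.1 CPM, with an interval of the log2 ratio that reached 0. Ndufs8, an iron-sulphur subunit of the Q module, was at 437 and 512 CPM. The N module thus held both the lowest subunit of the complex, Ndufv3, and 8 of 10 genes with a ratio above 0.

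Complex II, succinate dehydrogenase, is the only complex of the chain with no mitochondrially encoded subunit and is also an enzyme of the tricarboxylic acid (TCA) cycle. None of its 4 genes passed 1.2-fold, where 44.5% of all genes did, and the 4 split evenly. Sdha, the flavoprotein that oxidises succinate, was at 89.0 CPM (DMSO) and 87.1 CPM (pyrvinium). Its log2 ratio was -0.03, with an interval that included 0 (-0.10 to 0.04). Sdhb, the iron-sulphur subunit, was at 411 and 491 CPM (log2 ratio 0.26). Of the membrane anchors, Sdhc was at 420 and 486 CPM (0.21) and Sdhd at 425 and 368 CPM (-0.21). One gene of each pair, catalytic and anchor, was thus above 0 and the other below, although Sdha came above 0 in both other scalings (log2 ratio 0.05).

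Complex III, the cytochrome bc1 complex, held the subunit that differed most among the abundant ones. Uqcrq (ENSMUSG00000044894), a small subunit that sits next to cytochrome b, was at 1678 CPM with DMSO (1665 to 1690) and 2678 CPM with pyrvinium (2662 to 2695), 1.60-fold higher (log2 ratio 0.67). Its level in barcodes of 100 to 500 counts, taken as free RNA, was also higher, at 1540 and 2482 CPM. Uqcrq overlaps Gdf9 head to head in the RefSeq annotation, and Gdf9 had 13 and 4 counts. Within the clusters of cells that both libraries shared, clusters 1 and 3, its log2 ratio was 0.61 and 0.41. With equal weights for these clusters it was 0.52, under the limit of 1.5-fold.

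Cyc1 (ENSMUSG00000022551), which encodes cytochrome c1, was at 357 CPM (DMSO) and 479 CPM (pyrvinium) (log2 ratio 0.42). Uqcrfs1, the Rieske iron-sulphur protein and the other nuclear-encoded redox subunit, was at 417 and 379 CPM (-0.14). The core proteins Uqcrc1 and Uqcrc2 were at 679 and 699.5 CPM and at 157 and 171 CPM. Among the other small subunits, Uqcr10 was at 1678 and 1748 CPM, Uqcrh at 1124 and 1091 CPM, Uqcrb at 804.5 and 729.5 CPM and Uqcr11 at 2278 and 1994 CPM. Leaving Uqcrq and Cyc1 aside, the members of complex III had log2 ratios between -0.19 and 0.12.

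Complex IV, cytochrome c oxidase, has subunits that exist in several forms: common ones, and ones known from heart and skeletal muscle, testis, lung or low oxygen. The 11 common forms had a median log2 ratio of 0.05, and 0 of them passed 1.2-fold, where 44.5% of all genes did. Cox4i1, a subunit that joins the complex early in its assembly, was at 2795 CPM (DMSO) and 2989 CPM (pyrvinium) (log2 ratio 0.10). Cox5a was at 923 and 846 CPM (-0.13) and Cox5b at 781 and 728 CPM (-0.10). The pseudogene-named copy Cox5b-ps was at 64.8 and 55.7 CPM (-0.22), and how counting divided reads between it and Cox5b is not given. Cox6a1 was at 2750 and 3156 CPM (0.20), Cox7c at 1942 and 2242 CPM (0.21) and Cox8a at 1716 and 1928 CPM. Ndufa4 (ENSMUSG00000029632), once assigned to complex I and now known as a subunit of complex IV, was the lowest common form, at 1444 and 1206 CPM (-0.26). Cox7a2l, which helps join complexes III and IV into supercomplexes, was at 442 and 503 CPM (0.19).

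Of the 8 tissue and oxygen forms, 6 had at most 52 counts in a library. Cox8b and Cox8c had 0 counts in both libraries, Cox4i2, the form known from lung and low oxygen, had 2 and 5 counts, and Cox7b2 had 10 and 7. The other 2 were low but well counted. Cox7a1, known from heart and muscle, was at 17.3 CPM (DMSO, 690 counts) and 21.7 CPM (pyrvinium, 802 counts). Cox6b2, known from testis, was at 14.0 CPM (558 counts) and 14.3 CPM (531 counts). Cox6a2, the heart and muscle form, had 21 counts in 12 DMSO cells and 52 counts in 38 pyrvinium cells (log2 ratio 1.42, interval 0.66 to 2.22). Ndufa4l2, a form of Ndufa4 known to be induced in hypoxia, had 23 counts in 5 DMSO cells, 11 of them in 1 cell, and 2 counts in 2 pyrvinium cells (-3.41, interval -6.54 to -1.40). Of the 3 subunits past 1.5-fold, 2 therefore rest on fewer than 100 counts. Among cells matched in their range of counts Ndufa4l2 was at -1.89 and no longer counted as lower.

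Complex V, ATP synthase, makes ATP in its F1 head, which is driven by a rotating ring of c subunits and held by a peripheral stalk. Its parts differed in direction. All 5 genes of the F1 head had a ratio above 0, and their summed level was 4971 CPM (DMSO) and 5539 CPM (pyrvinium) (log2 ratio 0.16). Of the 4 genes of the peripheral stalk 3 were below 0, and the sum was 3942 and 3465 CPM (-0.19). The 5 other membrane subunits were below 0 in 4 cases, with a sum of 5272 and 5042 CPM (-0.06), but in both other scalings 3 of them were above 0 and the sum was at 0.02. Each of the other scalings raises every log2 ratio by a constant, so the F1 genes could only stay above 0. In the stalk 3 genes stayed below 0 in both, with its sum at -0.11 and -0.10. The nearest to 0 of these was Atp5pb, at -0.088 before the rescaling. Among cells with 0 to 2 counts of hypoxia genes at equal depth, 3 of the 5 F1 genes were above 0, and the main subunit genes Atp5b (-0.079, interval -0.105 to -0.053) and Atp5a1 (-0.057, -0.097 to -0.016) were below. At 1.5-fold 0 of the 17 genes were higher or lower, against 23.1% of all genes. At 1.2-fold 1 was higher and 2 were lower, 17.6% against 44.5% of all genes.

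In the F1 head, the catalytic subunit gene Atp5b was at 1370 and 1460 CPM (log2 ratio 0.09) and its partner Atp5a1 at 580 and 627 CPM (0.11). Atp5e (ENSMUSG00000016252), the epsilon subunit, was the highest of the complex, at 1270 and 1554 CPM (0.29). In the stalk, Atp5j (ENSMUSG00000022890), coupling factor 6, was the lowest, at 1582 CPM with DMSO (1570 to 1595) and 1180 CPM with pyrvinium (1169 to 1191), a log2 ratio of -0.42. Atp5j overlaps Gabpa head to head in the RefSeq annotation, and whether counting used the strand is not given in the sources used here. Gabpa was at 8.70 and 6.02 CPM. Atp5o, the stalk subunit known for conferring sensitivity to oligomycin, was at 1047 and 902 CPM (-0.22), whereas Atp5h was at 692 and 799 CPM (0.21). Atp5k, the membrane subunit e, was at 679 and 517 CPM (-0.39).

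The c subunit of the ring is encoded by 3 genes that give the same mature protein. Atp5g1 was at 1343 and 1404 CPM (log2 ratio 0.06), Atp5g2 at 678 and 799 CPM (0.24) and Atp5g3 at 927 and 798 CPM (-0.22). Their sum was 2947 CPM (DMSO) and 3001 CPM (pyrvinium), so the summed level was close while the genes that supply it differed in direction. The inhibitor of the enzyme, Atpif1, which the rule does not take, was at 607 and 597 CPM.

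The assembly factors spread more than the subunits. Of Ndufaf1 to Ndufaf8, 0 passed 1.5-fold, while 3 were higher and 3 lower at 1.2-fold, 6 of the 8, against 44.5% of all genes. Ndufaf5 was at 20.3 CPM (DMSO) and 29.6 CPM (pyrvinium) (log2 ratio 0.54), and Ndufaf3 at 65.7 and 87.3 CPM (0.41). Ndufaf1 was at 19.4 and 13.6 CPM (-0.51) and Ndufaf4 at 74.7 and 55.1 CPM (-0.44). Of 42 measured assembly factors outside the rule, 1 was higher and 3 lower at 1.5-fold, 9.52% against 23.1% of all genes. Cox18, which inserts a mitochondrially encoded subunit of complex IV into the membrane, was at 9.23 and 15.7 CPM. Sco2, a copper chaperone of the same complex, was at 45.1 and 28.6 CPM, and Coa7 at 24.0 and 10.9 CPM. The third was Tmem186, a complex I assembly factor with 219 and 89 counts, named here after its values were seen.

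The mitochondrially encoded partners of these subunits had a different level in the libraries. Their 13 genes summed to 25719 CPM (DMSO) and 16349 CPM (pyrvinium), a ratio of 0.636. At 1.5-fold 6 of 13 were lower and 2 higher, 61.5% against 23.1% of all genes. The higher ones were mt-Co1 and mt-Nd6, of which mt-Nd6 had only 29 and 48 counts. Of complex V, mt-Atp6 was at 8580 and 3649 CPM (log2 ratio -1.23). Of complex III, mt-Cytb was at 2819 and 1351 CPM (-1.06), and of complex I, mt-Nd4 was at 698 and 356 CPM (-0.97). Complex IV was mixed: mt-Co1 was at 217.5 and 438.5 CPM (1.01), mt-Co2 at 2701 and 2928 CPM (0.12) and mt-Co3 at 8331 and 6198 CPM (-0.43). In the barcodes taken as free RNA, mt-Co1 was at 665 and 808 CPM, above its level in cells in both libraries. The mitochondrial genes mt-Atp8 and mt-Atp6 overlap, as do mt-Nd4l and mt-Nd4, so the split of counts within these pairs is uncertain.

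The quotient of nuclear over mitochondrial counts was therefore higher with pyrvinium in each of the 4 complexes that have both. It went from 5.75 to 10.5 in complex I, from 3.25 to 7.38 in complex III, from 1.57 to 1.94 in complex IV and from 1.99 to 4.64 in complex V. These are 1.83-fold, 2.27-fold, 1.24-fold and 2.33-fold higher quotients. The nuclear sums differed by less than 1.1-fold in every complex, so the quotients follow the mitochondrial counts. Within clusters 1 and 3, described at the end, the mitochondrially encoded genes had median log2 ratios of -0.73 and -0.67, so the difference was present in both. It was not alike in all pyrvinium cells. Their share of these genes was 1.36% in cluster 1 and 1.33% in cluster 3. It was 2.20% in cluster 5, which held 256 pyrvinium and 5 DMSO cells. In the DMSO cells of clusters 1 to 4 the share lay between 2.09% and 3.04%. The depth of cells differed between the libraries too, and its part was not tested.

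**Figure D2:**
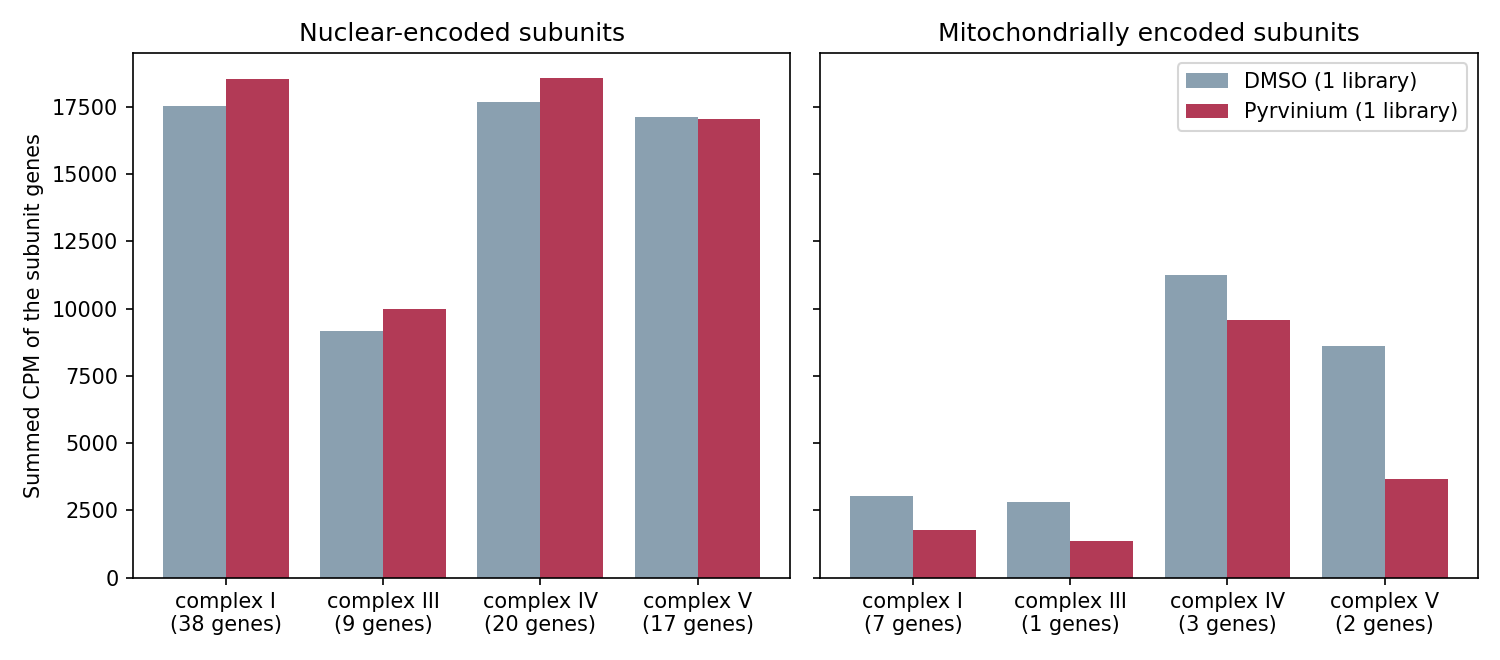
Summed CPM of the nuclear-encoded genes (left) and of the mitochondrially encoded genes (right) of complexes I, III, IV and V, in the DMSO and the pyrvinium library, 1 library each. The nuclear bars are close in height, while the mitochondrial bar of each complex is lower with pyrvinium. The difference is largest in complex V (8604 and 3670 CPM) and, as a ratio, smallest in complex IV (11249 and 9564 CPM).

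Genes around the chain gave the following values. Of 13 TCA cycle enzymes 0 passed 1.5-fold, with a median log2 ratio of 0.03. Their sum was level, at 1991 and 1997 CPM. At 1.2-fold 5 were higher and 1 lower, 46.2% against 44.5% of all genes. Citrate synthase, Cs, was at 158 and 204 CPM, and Dld, Ogdh and Idh3b were also above 0 (0.40, 0.38 and 0.39). Mdh2, the malate dehydrogenase of mitochondria and the most abundant gene of the list, was at 744 and 636 CPM (-0.23), and Idh3a (-0.33) and Suclg1 (-0.16) were also below 0, these 3 being named after their values were seen. Of 14 genes of cytochrome c and of ubiquinone synthesis, 2 were higher and 2 lower at 1.5-fold, 28.6% against 23.1% of all genes. The lower ones were Pdss1, which starts the ubiquinone side chain, at 12.7 and 6.51 CPM, and Coq8a, with 63 and 9 counts (-2.70). The higher ones were Coq8b, at 23.4 and 35.3 CPM, and Coq10a, with 251 and 350 counts (0.59). Coq8a and Coq10a were named after their values were seen. Coq7, at 38.8 and 27.2 CPM, and Coq2, at 18.1 and 24.8 CPM, did not reach 1.5-fold. Of 15 regulators of respiratory genes 0 were higher and 4 lower at 1.5-fold, with a median of -0.48. That is 26.7% of the list, near the 23.1% of all genes. Tfam, which packages mitochondrial DNA and takes part in its transcription, was lower, at 26.3 and 16.8 CPM (-0.65). The other 3, named after their values were seen, had few counts: Mterf1a 169 and 98, Mterf1b 104 and 48, and the coactivator Ppargc1b 109 and 62. Mterf1a and Mterf1b are close copies, so the split of counts between them is uncertain. The other coactivators did not reach 1.5-fold: Ppargc1a, with 136 and 188 counts, was above 0 (0.58) and Pprc1 below (-0.52). Of the 15 regulators 5 were above 0 and 10 below. Under 1.5-fold, Nrf1 was at 26.6 and 19.1 CPM (-0.48), Tefm, a mitochondrial elongation factor, at 14.4 and 12.1 CPM, and Gabpb1 at 10.9 and 15.9 CPM (0.55). Of 12 genes of membrane transport 0 passed 1.5-fold (median -0.15), among them Tomm40 (-0.34), Timm23 (-0.31), Tomm20 (0.30) and the ADP/ATP carrier Slc25a4 (-0.30).

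Glycolysis and hypoxia genes differed far more than the respiratory chain. Of 15 glycolysis genes 12 were lower at 1.5-fold (median log2 ratio -0.95), as were 13 of 15 hypoxia genes (median -1.40). Of all genes 15.5% were lower at this limit, and their median was -0.08. The level of hypoxia transcripts varied widely among DMSO cells, so the subunits were also described along it. Each cell was thinned to 5000 counts, and its counts of the 15 hypoxia genes, none of which is a subunit, were added up. The median was 5 in DMSO cells (90th percentile 26.9) and 3 in pyrvinium cells (90th percentile 5). At the same depth, the subunits had a median of 319 counts in DMSO cells, with quartiles of 268 and 363, and 321.5 in pyrvinium cells, with quartiles of 283 and 361. Over the cells without thinning, the subunits took a median share of 6.37% and 6.38%.

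Along the hypoxia counts the subunit share of the DMSO library went down. It was 6.96% in the 525 cells with 0 to 2 hypoxia counts, 6.81% in the 327 cells with 3 to 5, 6.12% in the 362 cells with 6 to 13 and 4.82% in the 388 cells with 14 to 86. In the same order glycolysis genes took 0.73%, 0.91%, 1.33% and 2.22%. The mitochondrially encoded genes took 2.55%, 2.82%, 2.66% and 2.23%. In the pyrvinium library the subunit share was 6.70% in 425 cells, 6.45% in 350 cells and 6.20% in 79 cells, and 0 cells had 14 or more hypoxia counts. The ranges of hypoxia counts are parts of a continuous score, not cell types: 191 DMSO cells had exactly 2 counts and 139 exactly 3.

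Median depth and cell cycle genes moved along the same axis. The median counts per DMSO cell were 20306, 20377, 17821 and 16076 from the lowest to the highest range. Cells of cluster 3, led by the dividing cell genes Ube2c, Hmgb2 and Birc5, made up 61.0%, 45.9%, 27.3% and 9.79%. Without cluster 3 the DMSO shares of the subunits were 6.94%, 6.68%, 5.94% and 4.71%. Dividing cells outside cluster 3 were not scored. The parts of depth and of the cell cycle were not tested.

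**Figure D3:**
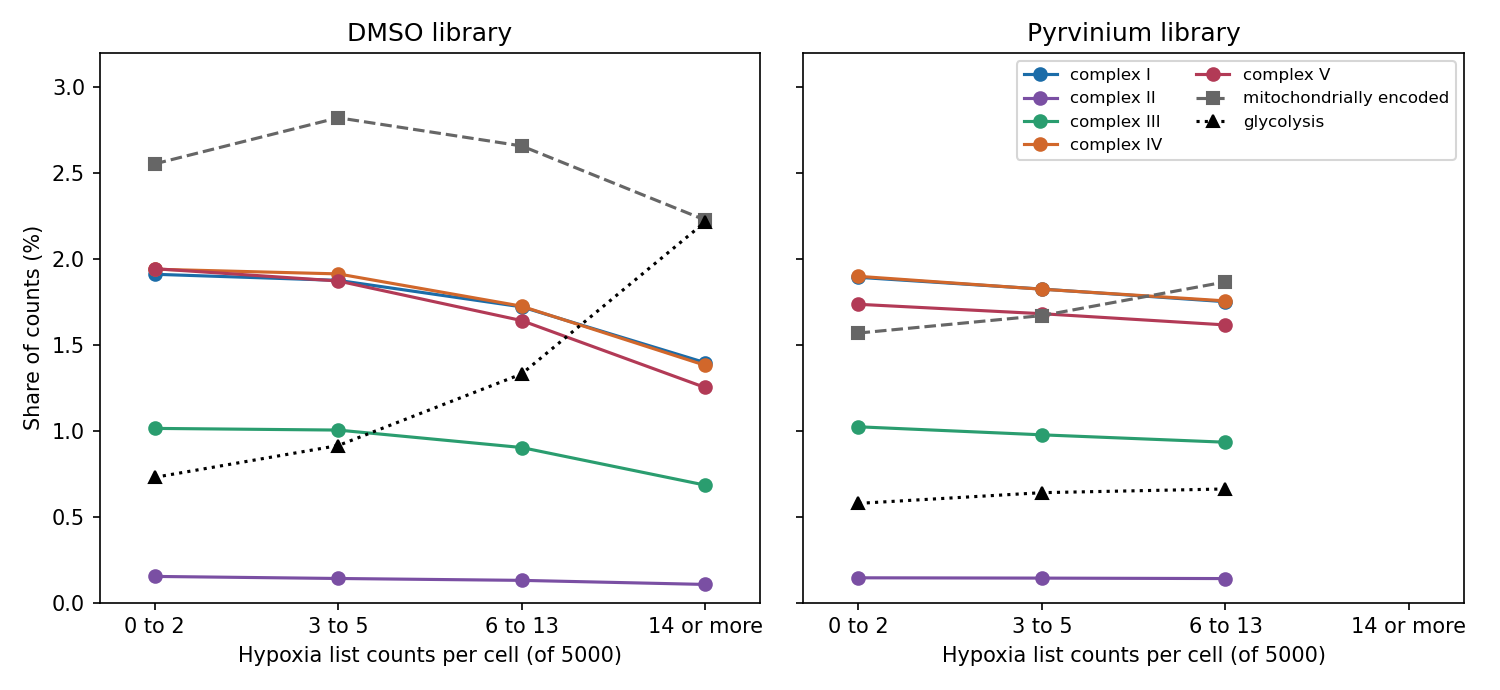
Share of all counts taken by the subunits of each complex, by the 13 mitochondrially encoded genes and by 15 glycolysis genes, in cells grouped by their counts of 15 hypoxia genes after thinning to 5000 counts; the DMSO library is on the left and the pyrvinium library, with 0 cells in the last range, on the right. In the DMSO library complexes I, IV and V go from near 1.9% to between 1.25% and 1.40%, while glycolysis goes from 0.73% to 2.22%.

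All 5 complexes took part in this. The log2 ratio of the DMSO cells with 14 or more hypoxia counts over those with 0 to 2 had a median of -0.55 over 81 measured subunits, against -0.17 over all genes. The medians were -0.61 for complex I, -0.48 for complex II, -0.55 for complex III, -0.46 for complex IV and -0.65 for complex V. At 1.2-fold 64 subunits were lower and 4 higher, 84.0% in all against 54.4% of all genes. At 1.5-fold 36 were lower and 4 higher, 49.4% against 40.5%. Cells of 1 library are not replicates, and these values describe that library.

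Ndufa4 had the largest difference among the lower subunits, from 1832 CPM in the hypoxia-poor to 761 CPM in the hypoxia-rich DMSO cells (log2 ratio -1.27). Atp5k went from 858 to 361 CPM (-1.25), Atp5g1 from 1651 to 784 CPM (-1.07) and Ndufa5, a subunit of the Q module, from 445 to 211 CPM (-1.07). Among catalytic subunits, Cyc1 went from 425 to 220.2 CPM (-0.95), Atp5b from 1510 to 1131 CPM (-0.42) and Sdha from 95.3 to 73.5 CPM (-0.37). Cox4i1 differed less, from 2860 to 2501 CPM (-0.19), and Ndufa7, an accessory subunit of complex I, was at 902 and 897 CPM. The assembly factor Ndufaf4 went from 111 to 24.7 CPM (-2.16), a larger difference than in any of the 81 measured subunits.

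The 4 subunits higher in hypoxia-rich cells were 2 of complex I and 2 tissue forms of complex IV. Ndufv3 was at 385 CPM in the hypoxia-poor and 707 CPM in the hypoxia-rich cells (log2 ratio 0.88), and Ndufa6, an accessory subunit on the matrix arm of complex I, at 525 and 933 CPM (0.83). Cox7a1 was at 11.8 and 27.2 CPM (1.21) and Cox6b2 at 8.45 and 15.6 CPM (0.89). The rare forms of complex IV had too few counts for a ratio: from the lowest to the highest hypoxia range Ndufa4l2 had 0, 1, 16 and 6 counts and Cox6a2 had 0, 0, 3 and 18. Both Ndufv3 and Ndufa6 belong to complex I, most of whose other members were lower in the same cells.

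**Figure D4:**
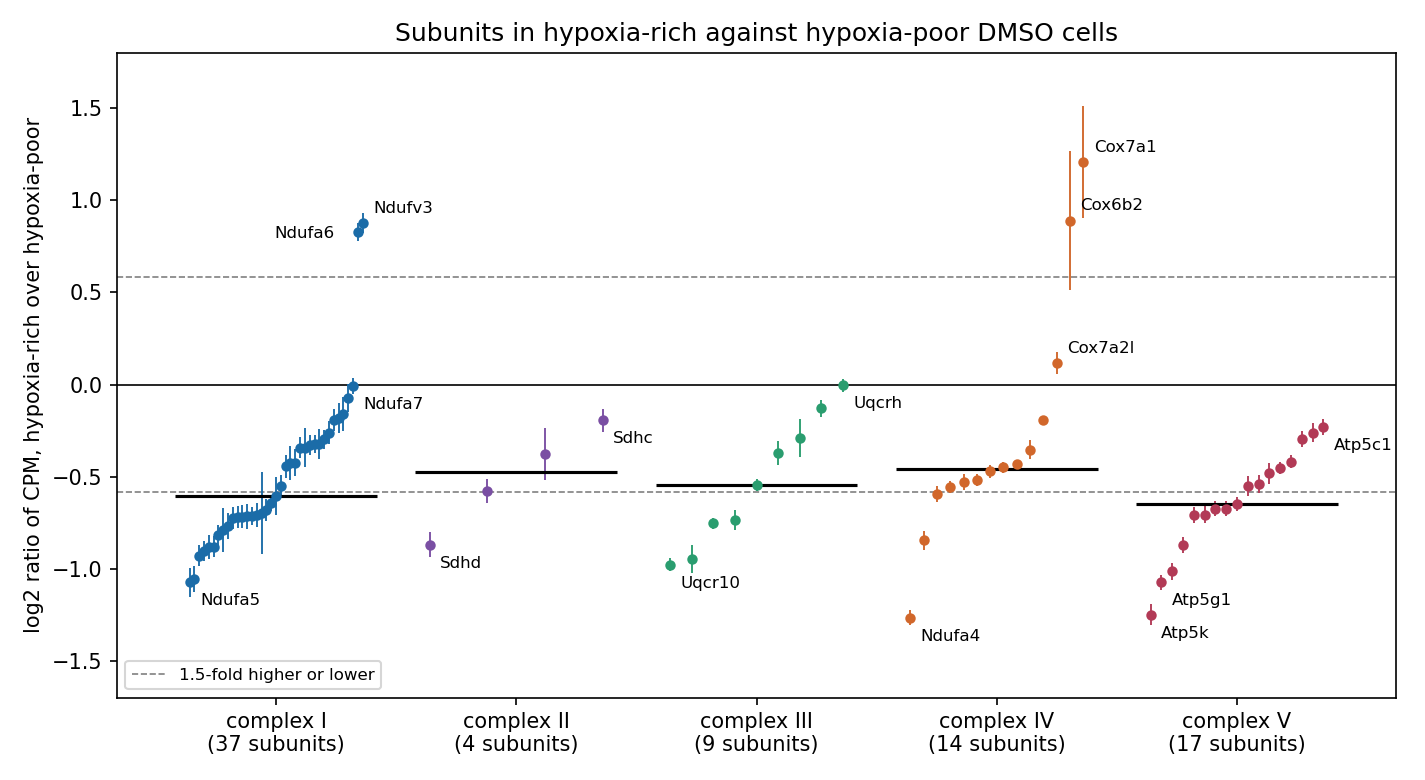
Log2 ratio of hypoxia-rich (14 or more hypoxia counts) over hypoxia-poor (0 to 2) DMSO cells for the subunits shown in the plot of pyrvinium over DMSO, 1 point per gene with its 95% counting interval; black bars are medians per complex. Most points lie below 0 in every complex, and Ndufv3, Ndufa6, Cox7a1 and Cox6b2 lie above the 1.5-fold line.

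Because the pyrvinium library held no hypoxia-rich cells, the libraries were also compared over hypoxia-poor cells only, a choice made after the data were seen. The make-up of these cells still differed: cluster 3 held 61.0% of the 525 from DMSO but 14.1% of the 425 from pyrvinium. How much this uneven make-up adds to the values of hypoxia-poor cells was not tested. Over 82 measured subunits the median log2 ratio in hypoxia-poor cells was -0.05, with 35 above 0 and 47 below, against -0.15 over all genes. At 1.5-fold 3 were higher (Cox6a2, Cox7a1 and Cox6b2, all of low level) and 2 lower (Atp5k and Ndufa4), where 33.0% of all genes passed. Cox6a2 had 0 counts in these DMSO cells and 21 in the pyrvinium cells, so its ratio rests on setting the 0 to 3 counts. At 1.2-fold 7 were higher and 19 lower, where 50.9% of all genes passed. The median went from above 0 to below 0 in complexes I (-0.03), II (-0.08), III (-0.10) and V (-0.17), and was 0.10 in complex IV.

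Several members changed place in this comparison. Ndufv3, lower over all cells, was at 385 CPM (DMSO) and 389 CPM (pyrvinium) (log2 ratio 0.01). Within clusters 1 and 3, over all hypoxia counts, Ndufv3 was still lower with pyrvinium (-0.40 and -0.24). Ndufa6 went up to 0.50, from 525 to 742 CPM. The lower members of complex V were lower still, Atp5k at 858 and 516 CPM (-0.73), Atp5j at 1741 and 1176 CPM (-0.57) and Atp5g3 at 1142 and 802 CPM (-0.51). Ndufa4 was at 1832 and 1198 CPM (-0.61). Uqcrq was at 1843 and 2736 CPM (0.57), just under the 1.5-fold limit, and Ndufs7 was at 600.4 and 765 CPM (0.35).

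Cell clusters gave a further view. With the members left out, the cells formed 5 clusters, of which only clusters 1 and 3 held at least 30 cells of each library. Cluster 1, led by the stress genes Gdf15 and Ddit3, held 293 DMSO and 465 pyrvinium cells, and its 82 measured subunits had a median log2 ratio of 0.13, with 2 higher and 1 lower at 1.5-fold against 29.4% of all genes. Cluster 3 held 607 and 113 cells, and its 81 measured subunits had a median of -0.04, with 0 higher and 2 lower against 25.0% of all genes. Complex V differed most between them, with a median of 0.11 in cluster 1 and -0.24 in cluster 3, a difference that was not tested. The lowest subunit share, 4.45%, was in cluster 2, led by Selenbp1, Bnip3 and Lgals3, which held 276 DMSO cells and 0 pyrvinium cells. Hypoxia genes, Bnip3 among them, took 0.57% of its counts and glycolysis genes 2.34%, the highest shares of the clusters measured. Its low subunit share is therefore not independent of the hypoxia ranges above.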

How the data were processed

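Single cells of 1 DMSO and 1 pyrvinium organoid culture were captured with PIPseq, per the labels' protocols. The authors deposited whole-number counts per gene and barcode over 32227 genes, not normalized and not reduced to cells. Partek and the build GRCm39 are named in the submitters' processing notes; the sources used here name no aligner, counter, annotation or use of strand. Whether a count is a molecule is not stated.

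A barcode was kept when it reached 1/10 of the 99th percentile of its library's top 2000 barcodes, with at least 500 genes and at most 20% mitochondrial counts. Doublets were not removed. Counts were summed over cells and scaled to CPM, with exact Poisson intervals and exact conditional binomial intervals of ratios. A sum of 0 was set to a floor of 3 counts. Ratios were checked on simulated data. Clusters used scanpy 1.11.5 (2000 variable genes, 30 components, 15 neighbours, Leiden resolution 0.5). Motifs were searched in RefSeq sequences.

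The members and lists were chosen with earlier results of these data known. Named genes are the 2 highest and 2 lowest per complex with at least 20 CPM, catalytic subunits, tissue isoforms, and up to 4 genes of each other list with at least 10 CPM; further members named in the hypoxia comparisons were chosen after their values were seen. One gene that this rule takes is not reported here. Alternatives were thresholds of 1000 and 3000 counts, 2 other scalings, means over cells, cells matched in their range of counts, 10% free RNA subtracted, doublets removed, equal cluster weights, no minimum count and, added after seeing the data, hypoxia-poor cells only.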

Additional observations from a re-analysis of the deposited data

How the results depend on the processing

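No paired analysis was possible because each group has 1 library, and for the same reason no library could be left out. Over all subunits the median log2 ratio went from 0.07 to 0.15 when scaled by the median of ratios or without mitochondrial and ribosomal protein genes, and to -0.047 in hypoxia-poor cells. By the median of ratios it was 0.18, 0.17, 0.13, 0.16 and 0.15 for complexes I to V, and without mitochondrial and ribosomal protein genes 0.17, 0.17, 0.12, 0.15 and 0.14. In hypoxia-poor cells it was -0.032, -0.081, -0.10 and -0.17 for complexes I, II, III and V. With equal cluster weights it was 0.22, -0.024, -0.0035 and -0.046 for complexes II to V. In cells matched in their range of counts it was -0.0066, 0.035 and 0.032 for complexes III to V. The mean over cells gave 0.013 for complex III, and thresholds of 3000 and 1000 counts gave 0.045 and 0.050 for complex IV. The number of subunits at least 1.5-fold higher, 2, was 1 with equal cluster weights and 3 in hypoxia-poor cells, where Uqcrq was no longer among them. These 3 include Cox6a2, whose 0 counts in hypoxia-poor DMSO cells were set to the floor. The number lower, 1, was 0 in the matched cells and 2 in hypoxia-poor cells. The cause was not tested. The direction of a complex median is thus not settled by these libraries. Of 420 values of named members recomputed, 202 moved beyond their counting interval, and 9 moved by over 1.5-fold, all of them of Cox4i2, Cox6a2, Cox6b2, Cox7a1, Cox7b2 or Ndufa4l2, each under 30 CPM.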
